A study of Homo sapiens with 8 samples.

Results

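VCAM1, ICAM1, ALCAM, MCAM, L1CAM and CD44 encode proteins of the cell surface that hold cells to other cells or to the matrix, and their transcripts were followed in xenograft tumours that T24, a long-established line of human bladder cancer cells, formed in mice. The 6 genes were taken by symbol from the 58302 identifiers of the deposited count table, and all 6 were among the 18973 genes with enough counts to test. The set was put together by name, and VCAM1 was chosen by the wide range of its level between tumours, so its values are given as a description with no test. There were 4 libraries labelled DDR1 over expression and 4 labelled control, all from xenograft tumours of T24. The labels name neither the vector and promoter used to express DDR1, nor what the control cells carried, nor the strain, age or number of mice, nor whether a line was 1 clone. They do not say that libraries came from separate animals. A p-value here is therefore set against the spread among these 8 libraries alone, and that spread may be technical.

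Cell adhesion molecules of the immunoglobulin family sit in the membrane with a row of extracellular domains and bind integrins, each other or the same molecule on a neighbouring cell. VCAM1 and ICAM1 are best known from endothelium, where inflammatory cytokines acting through NF-kB switch them on and where leukocyte integrins bind them. CD44 belongs to another family: it binds hyaluronan, a long sugar polymer of the matrix, and links it to the actin skeleton beneath the membrane. In bulk tissue, fewer cells of a type and less RNA per cell cannot be told apart.

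Library totals ran from 20789449 to 32271016 estimated counts in the DDR1 group and from 13716285 to 22736649 in the control group. DDR1, the collagen-activated receptor tyrosine kinase that was to be over-expressed, checks the labels. Its level was 159, 343, 427 and 809.9 CPM (counts scaled to a common library size, here with the between-library factor TMM) in DDR1 replicates 1 to 4, against 138, 109.8, 210.4 and 149 CPM in control replicates 1 to 4. The library labelled DDR1 replicate 1 thus lay inside the control range, and the fold changes of the 6 molecules below are therefore also given without it. The other DDR1 libraries all share 1 title prefix, which this library does not carry. Values without it thus set DDR1 libraries of a single prefix against the controls, and these may not be independent replicates. The difference in DDR1 had a log2 fold change of 1.52 (SE 0.43), with an edgeR quasi-likelihood p of 0.00612 unadjusted and 0.9998 adjusted over all genes. By exact permutation of the group labels, two-sided, p was 0.0571; 4 libraries against 4 can reach 0.0286. All DDR1 titles name lane 8 and 2 of the control titles name lane 7, so lane and group cannot be told apart.

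VCAM1 (ENSG00000162692, GRCh38 chr1:100719742-100739045, plus strand) binds the integrin made of the ITGA4 and ITGB1 chains. It showed a wide spread inside each group. Its level was 7.9, 186, 481 and 6.85 CPM in DDR1 replicates 1 to 4, against 549, 291, 20.5 and 263 CPM in control replicates 1 to 4. The lowest library, DDR1 replicate 4, rested on 137 counts and the highest, control replicate 1, on 9920. The libraries parted into 3 low ones, of which 2 were DDR1 and 1 was control, and 5 high ones, with a 9.04-fold gap between 20.5 and 186 CPM and nothing in between. Both groups held low and high libraries, and their ranges overlapped.

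The highest VCAM1 library stood 80.2 times above the lowest over all 8, 70.2 times within the DDR1 group and 26.8 times within the control group. Among the 11894 tested genes that averaged at least 5 CPM, the median gene had a ratio of 1.93, and 102 genes (0.858%) had a larger range than VCAM1. That wide range is what VCAM1 was picked for, and it supports nothing further. The group means were 170.4 ± 224 CPM in DDR1 libraries and 281 ± 216 CPM in control libraries (SD, n = 4 each), so each SD was close to or above its mean. Its log2 fold change was -0.72 (SE 1.26), and it was -0.33 without DDR1 replicate 1. With the controls of lane 7 left out it was 0.29, the other sign. The 4 DDR1 libraries of lane 8 averaged 170.4 CPM, against 420.2 CPM in the 2 controls of lane 7 and 142 CPM in the 2 controls with no lane in the title.

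**Figure D1:**
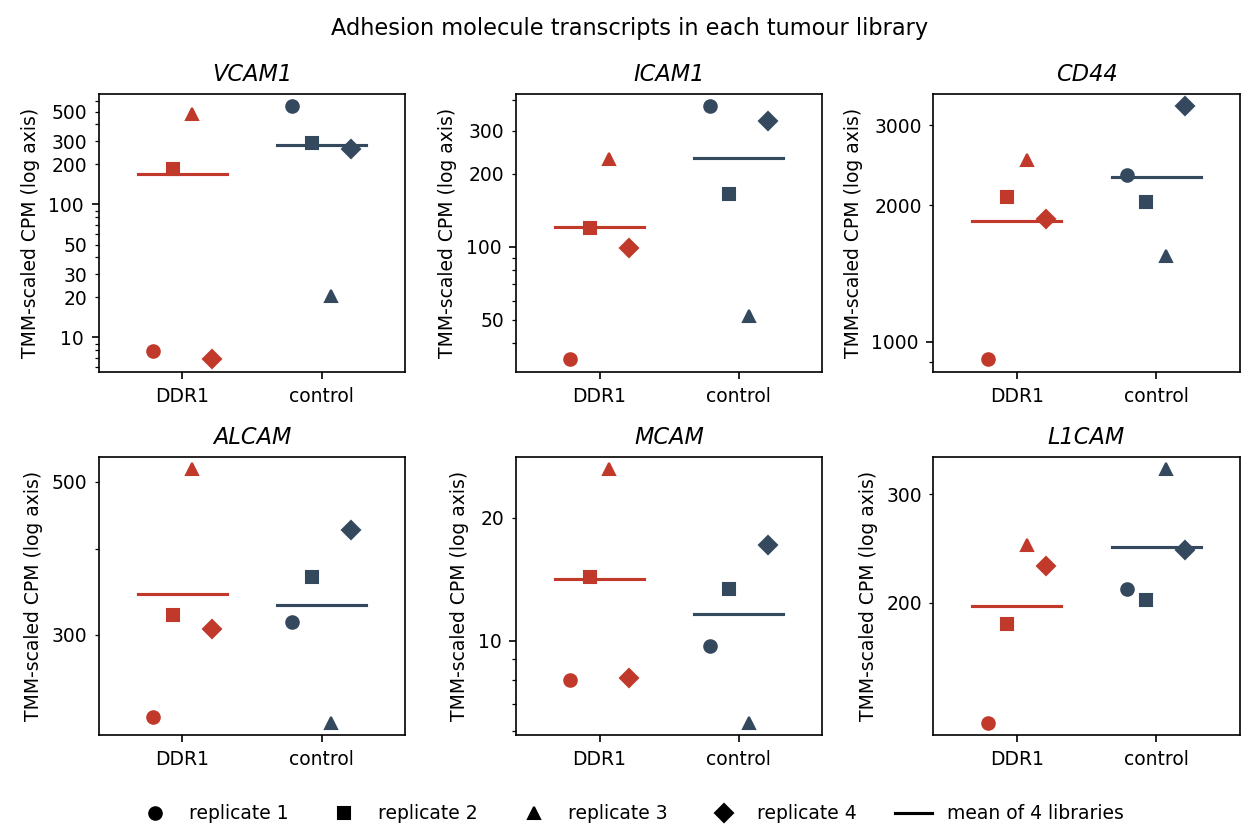
TMM-scaled CPM (log axis) of the 6 adhesion molecules in every library, DDR1 libraries left and control libraries right in each panel; each symbol is 1 library and each line is the mean of 4. The DDR1 and control libraries overlap for all 6 genes, and VCAM1 has 3 libraries at or below 20.5 CPM and 5 at or above 186 CPM.

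ICAM1 (ENSG00000090339, GRCh38 chr19:10270835-10286615, plus strand), the ligand of the leukocyte integrins that contain ITGB2, had the second widest range of the 6. It stood at 34.4, 119, 230.1 and 98.5 CPM in DDR1 replicates 1 to 4, against 379, 165, 51.8 and 329 CPM in control replicates 1 to 4. The 2 highest libraries were controls and the lowest was DDR1 replicate 1, but control replicate 3 was the next lowest, so the groups overlapped. The means were 121 ± 81.5 CPM in DDR1 libraries and 231 ± 151 CPM in control libraries (SD, n = 4 each). The log2 fold change of -0.94 (SE 0.64) did not pass edgeR's quasi-likelihood test (unadjusted edgeR p of 0.177, adjusted p = 0.9998). Without DDR1 replicate 1 it was -0.63, and the ratio of the highest to the lowest library was then 7.31 instead of 11. A larger range than that of ICAM1 over all 8 libraries was found for 3.35% of genes of at least 5 CPM. The span of the antisense gene AC011511.5 overlaps that of ICAM1, and it held 722 counts over all libraries. Whether their exons overlap was not examined. The protocol does not state strand, so reads from any shared exon stretch could not be told apart.

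The windows of 250 bases before the RefSeq starts of VCAM1 and ICAM1 are printed because these were the 2 of the 6 genes whose windows held the NF-kB-like string GGNNTTTCC, searched on both strands. They come from RefSeq on GRCh38.p14, where all 6 genes had a window, and capitals mark the matches. The VCAM1 window lies at chr1:100719492-100719741 and the ICAM1 window at chr19:10270870-10271119, both on the plus strand.
VCAM1: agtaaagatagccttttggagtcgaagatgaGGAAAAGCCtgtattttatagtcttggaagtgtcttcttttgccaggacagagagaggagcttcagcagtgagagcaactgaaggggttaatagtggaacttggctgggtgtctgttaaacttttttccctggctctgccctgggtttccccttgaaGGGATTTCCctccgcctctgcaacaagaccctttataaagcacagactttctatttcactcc
ICAM1: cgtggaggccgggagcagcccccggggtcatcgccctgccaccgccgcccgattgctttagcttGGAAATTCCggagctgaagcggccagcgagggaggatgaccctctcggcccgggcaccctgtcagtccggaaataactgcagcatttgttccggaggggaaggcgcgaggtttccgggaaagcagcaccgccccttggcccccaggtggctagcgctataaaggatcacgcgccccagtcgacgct

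In the VCAM1 window the string stood as GGGATTTCC on the plus strand, bases -62 to -54 from the start, and as GGCTTTTCC on the minus strand, bases -219 to -211. In the ICAM1 window it stood as GGAATTTCC on the minus strand, bases -186 to -178. Of all 35116 promoter windows of that length, 5.48% held GGNNTTTCC. An interferon-response-like string, GAAA followed after 2 further bases by another GAAA, stood in the VCAM1 window on the minus strand at bases -15 to -6, and in 3.02% of all windows on either strand. No window of the 6 genes held the AP-1-like string TGANTCA, which 6.57% of all windows held. None of the matches printed in capitals overlapped it. These are matches of letters, not measured binding sites.

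CD44, the hyaluronan receptor (ENSG00000026508, GRCh38 chr11:35138870-35232402, plus strand), was the most abundant of the 6. Its level was 914, 2090.3, 2521 and 1864 CPM in DDR1 replicates 1 to 4, against 2327, 2030.1, 1547 and 3309 CPM in control replicates 1 to 4. DDR1 replicate 1 was the lowest library by a 1.69-fold gap, and the other 3 DDR1 libraries lay within the control range. The means were 1847 ± 679 CPM in DDR1 libraries and 2304 ± 744 CPM in control libraries (SD, n = 4 each), a log2 fold change of -0.32 (SE 0.34; unadjusted edgeR p of 0.366, adjusted p = 0.9998). Without DDR1 replicate 1 the log2 fold change was -0.09 and the ratio of the highest to the lowest library 2.13, instead of 3.62. Larger ranges than that of CD44 were found for 12.3% of genes. The gene is spliced into many isoforms, which these gene totals do not separate, and AL133330.1 (1023 counts, same strand) and CD44-AS1 (391 counts, other strand) lie within it.

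ALCAM (ENSG00000170017, GRCh38 chr3:105366909-105576900, plus strand) binds itself on neighbouring cells and CD6 on T cells, and it had the narrowest range of the 6. They were 228, 321, 521 and 306 CPM in DDR1 replicates 1 to 4, against 313, 364, 224 and 426 CPM in control replicates 1 to 4. The highest library was DDR1 replicate 3 and the lowest control replicate 3, a ratio of 2.33, and 31.2% of genes had a larger range. The means, 344 ± 125 CPM in DDR1 libraries and 332 ± 85.3 CPM in control libraries (SD, n = 4 each), differed by less than either SD. The log2 fold change was 0.05 (SE 0.28; unadjusted edgeR p of 0.857, adjusted p = 0.9998). Its sign rested on single libraries: it was -0.22 without DDR1 replicate 3, -0.09 without control replicate 3 and 0.21 without DDR1 replicate 1.

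MCAM (ENSG00000076706, GRCh38 chr11:119308529-119321521, minus strand), first described on melanoma cells and also carried by endothelium and pericytes, was the least abundant of the 6. DDR1 replicates 1 to 4 held 7.99, 14.3, 26.3 and 8.1 CPM, against 9.69, 13.4, 6.29 and 17.2 CPM in control replicates 1 to 4. DDR1 replicate 3 was highest by a 1.53-fold gap, and the rest of the DDR1 group lay within the control range. The means were 14.2 ± 8.59 CPM in DDR1 libraries and 11.6 ± 4.71 CPM in control libraries (SD, n = 4 each), with a log2 fold change of 0.28 (SE 0.44; unadjusted edgeR p of 0.532, adjusted p = 0.9998). Without DDR1 replicate 3 it was -0.20 and without DDR1 replicate 1 it was 0.48. The span of MCAM overlaps that of CBL, a ubiquitin ligase gene on the other strand with 21199 counts over all libraries. Whether their exons overlap was not examined. Without strand, reads from any shared exon stretch could not be told apart.

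L1CAM (ENSG00000198910, GRCh38 chrX:153861514-153886174, minus strand), first known from growing axons, binds itself and integrins that recognise the RGD tripeptide. Its level was 128, 185, 248 and 229.6 CPM in DDR1 replicates 1 to 4, against 211, 202, 329 and 244 CPM in control replicates 1 to 4. The order of the libraries differed from that of the other 5: control replicate 3, low for the others, was the highest. The means were 198 ± 53.4 CPM in DDR1 libraries and 246 ± 58 CPM in control libraries (SD, n = 4 each), a log2 fold change of -0.32 (SE 0.24; unadjusted edgeR p of 0.225, adjusted p = 0.9998). Without DDR1 replicate 1 it was -0.16. The ratio of the highest to the lowest library was 2.57, and 24.7% of genes had a larger one.

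Thus 0 of the 5 tested members passed edgeR's quasi-likelihood test at an adjusted p under 0.05, where 0 of 18973 genes (0%) did. None of the 5 had an unadjusted p under 0.05, against 791 genes (4.17%) of all tested. DESeq2 also called none of them, and called 16 of 17806 genes (0.0899%). The DDR1 and control libraries did not overlap for 456 genes (2.4%), and they overlapped for all 6 adhesion molecules. The point estimates were higher in DDR1 libraries for ALCAM and MCAM and lower for the other 4, with a median of -0.32 on the log2 scale, beside -0.00 over all genes. A p above the threshold does not show that the groups had equal levels: the standard errors of 0.24 to 0.64 among the tested members leave room for differences of that order.

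**Figure D2:**
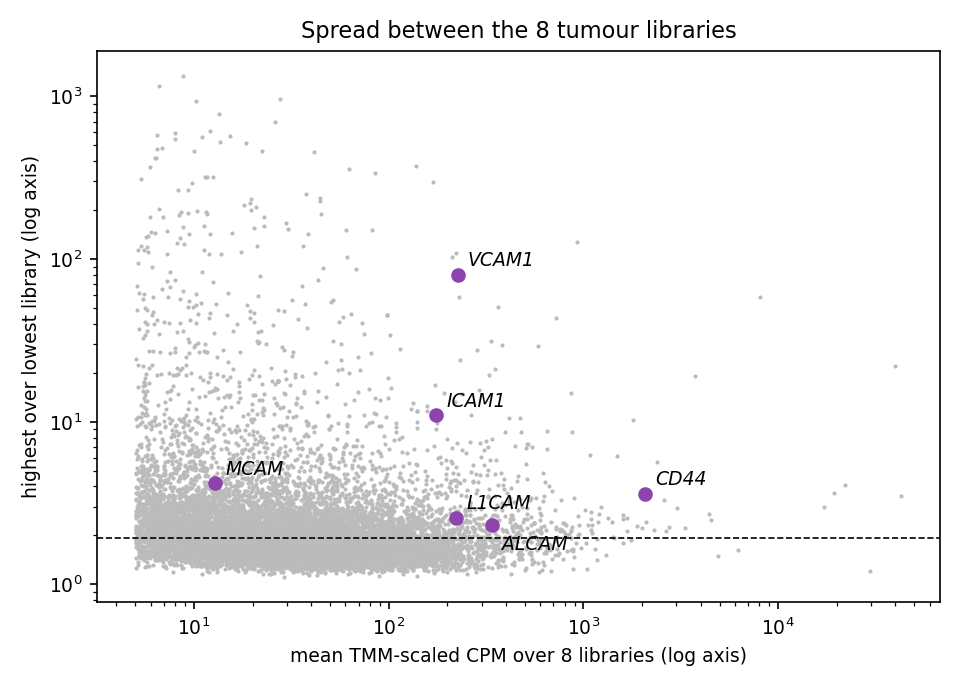
Ratio of the highest to the lowest of the 8 libraries (log axis) against mean level (TMM-scaled CPM, log axis) for the tested genes of at least 5 CPM (grey) and the 6 adhesion molecules (purple, named). VCAM1 has a ratio of 80.2 and ICAM1 of 11, against a median of 1.93 over all these genes (dashed line).

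Divided by merged exon length, CD44 ranked first and MCAM last of the 6 in all 8 libraries. CD44 held 185 ± 67.9 CPM per kb in DDR1 libraries and 230.3 ± 74.3 CPM per kb in control libraries (SD, n = 4 each). MCAM held 1.91 ± 1.16 CPM per kb in DDR1 libraries and 1.57 ± 0.634 CPM per kb in control libraries. The other 4 lay between these and exchanged places. ALCAM stood at 47.9 ± 17.4 CPM per kb in DDR1 libraries and 46.2 ± 11.9 in control libraries. ICAM1 stood at 32.5 ± 22 CPM per kb in DDR1 libraries and 62.4 ± 40.6 in control libraries. L1CAM stood at 27.2 ± 7.35 CPM per kb in DDR1 libraries and 33.9 ± 7.98 in control libraries. These 3 and VCAM1, at 28.2 ± 36.9 CPM per kb in DDR1 libraries and 46.5 ± 35.8 in control libraries, overlapped in their mean ± SD with their neighbours among these 4. VCAM1 ranked as high as second, in DDR1 replicate 3, and at rank 5 in each of its 3 low libraries.

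Read library by library, 5 of the 6 molecules shared their low tumours. DDR1 replicate 1, DDR1 replicate 4 and control replicate 3 were the 3 lowest libraries for VCAM1, and also for ICAM1, ALCAM, MCAM and CD44. For L1CAM the 3 lowest were DDR1 replicate 1, DDR1 replicate 2 and control replicate 2. Among all genes of at least 5 CPM, 815 of 11894 (6.85%) had the same 3 lowest libraries as VCAM1. The shared low libraries held both conditions. The sum of human genes used as fibroblast markers, at 5.49, 15.6 and 21.4 CPM, was lowest in the same 3 libraries. Host fibroblasts are mouse cells, so this sum is no measure of their number. So was the summed list of receptors read below (integrin chains and CD6), at 741, 847 and 820.4 CPM. The part of either was not tested. The pattern was noticed after the values were seen, and it is a description.

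**Figure D3:**
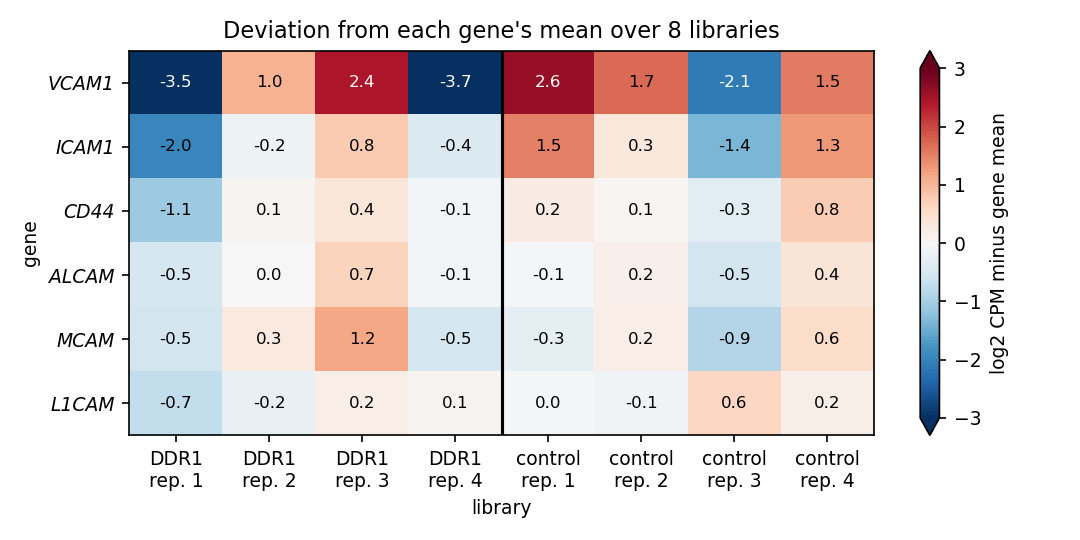
Deviation of each library from the mean of its gene (log2 CPM) for the 6 adhesion molecules (down) and 8 libraries (across, DDR1 left, control right); red is above and blue below the mean. DDR1 replicate 1, DDR1 replicate 4 and control replicate 3 are the 3 lowest libraries for VCAM1, ICAM1, ALCAM, MCAM and CD44, while control replicate 3 is the highest for L1CAM.

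Whether the members varied together was tested for the 10 pairs without VCAM1, over 8 libraries, with exact two-sided permutation p-values adjusted over the 10 pairs. ALCAM and MCAM had a Pearson r of 0.94 (exact permutation p = 0.000149, adjusted 0.00149) and a Spearman rho of 0.98 (exact permutation p = 0.000397, adjusted 0.00397). Without the 2 libraries farthest from the ALCAM median, r was 0.84. ICAM1 and CD44 had an r of 0.91 (exact permutation p = 0.00057, adjusted 0.00285) and a rho of 0.90 (exact permutation p = 0.00456, adjusted 0.0228), and an r of 0.76 without the 2 libraries farthest from the ICAM1 median. With the library labelled DDR1 replicate 1 left out, the r of ICAM1 and CD44 was 0.86 and no longer passed (exact permutation, adjusted p = 0.0635), while that of ALCAM and MCAM was 0.95 and passed (exact permutation, adjusted p = 0.0198). Both pairs were thus high and low in the same tumours, and for ICAM1 and CD44 the call rested on 1 library.

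ALCAM and CD44 had an r of 0.81 (exact permutation p = 0.0142, adjusted 0.0474) and a rho of 0.86 (exact permutation p = 0.0107, adjusted 0.0268), with an r of 0.94 without the 2 libraries farthest from the ALCAM median. The call on r was lost without any of 6 of the 8 libraries in turn (r of 0.79 to 0.82) and with library totals in place of TMM (r = 0.75, exact permutation, adjusted p = 0.087). ICAM1 and ALCAM had an r of 0.78 that did not pass (exact permutation p = 0.0215, adjusted 0.0538). MCAM and CD44 passed on rho, 0.88 (exact permutation p = 0.00724, adjusted 0.0241), but not on r, 0.67 (exact permutation p = 0.0636, adjusted 0.127). ICAM1 and MCAM, with an r of 0.64, did not pass either (exact permutation p = 0.0863, adjusted 0.144).

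L1CAM had the weakest relations: r was 0.04 with MCAM, 0.21 with ALCAM, 0.28 with ICAM1 and 0.52 with CD44, none of which passed (exact permutation, adjusted p from 0.255 to 0.923). All 4 were negative without DDR1 replicate 1, from -0.45 to -0.28. With other single libraries left out, r reached up to 0.57 with MCAM, 0.83 with ALCAM, 0.81 with ICAM1 and 0.90 with CD44. The weak relations of L1CAM thus rested on single libraries. For VCAM1 no relation with another member was tested, because it was picked for its range. Its libraries also fell into 2 separate clusters of 3 and 5, too few for a value within each. Since relations across libraries could follow the groups, r was also taken on deviations from the group means. It was 0.95 for ALCAM and MCAM, 0.90 for ICAM1 and CD44 and 0.88 for ALCAM and CD44. Lanes held at most 4 libraries, too few for a value within them, and libraries that share a title prefix entered as separate points.

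Genes whose library pattern was most like that of each molecule were ranked by Pearson r of log2 CPM over the 8 libraries among tested genes of at least 5 CPM, as a description with no p. For VCAM1 these were CLCN4 (0.983), a chloride exchanger gene, NEGR1 (0.980), an immunoglobulin-family adhesion gene, ADAMTS3 (0.978), a procollagen-processing protease, ITGB6 (0.976), an integrin chain of epithelium, and VGLL3 (0.974), a transcription cofactor. ITGB6 stood at 0.604, 18.9, 36.1 and 1.05 CPM in DDR1 replicates 1 to 4, against 92.7, 31.2, 3.83 and 59.9 CPM in control replicates 1 to 4. NEGR1 stood at 0.201, 6.11, 18.7 and 0.45 CPM in DDR1 replicates 1 to 4, against 32.3, 9.81, 1.08 and 21 CPM in control replicates 1 to 4. Both were lowest in the same 3 libraries as VCAM1. In all, 138 genes had an r above 0.9 with VCAM1. Because VCAM1 values form 2 clusters, any gene that parts the same libraries scores highly, so these values order the genes and show no relation within a cluster.

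For ICAM1 the leading genes were MCOLN3 (0.976), COL4A1 (0.970), a chain of basement membrane collagen, and SH3RF1 (0.968), and 114 genes had an r above 0.9. COL4A1 stood at 172, 493, 532 and 301 CPM in DDR1 replicates 1 to 4, against 783, 407, 183 and 798 CPM in control replicates 1 to 4. For CD44 the leading genes were FEZ1 (0.989), GALNT2 (0.974), a glycosyltransferase, and FSTL1 (0.970), with 120 genes above 0.9. ALCAM was most like ZHX2 (0.982), MSRB3 (0.974) and TMEM30A (0.968), with 88 genes above 0.9. MCAM shared ZHX2 (0.969) with ALCAM, behind DIRC2 (0.979) and TMEM263 (0.974), with 83 genes above 0.9. L1CAM had the fewest, 29 genes, led by ZSWIM4 (0.966), FAM219A (0.965) and ZFHX3 (0.962).

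The partners of these molecules were read in lists of genes, and edgeR called 0 genes in each list. Of the 12 genes in the list of receptors for VCAM1, ICAM1, ALCAM and L1CAM, integrin chains and CD6, 8 were tested, 4 with higher and 4 with lower estimates in DDR1 libraries and a median log2 fold change of -0.01. ITGB1 held 694 ± 147 CPM in DDR1 libraries and 584 ± 184 CPM in control libraries, and ITGAV held 306 ± 169 CPM in DDR1 libraries and 420.5 ± 125 CPM in control libraries (SD, n = 4 each). The partner chains of leukocytes were near 0: ITGA4, which pairs with ITGB1 to bind VCAM1, had 6 counts over all 8 libraries, and ITGAL, ITGAM and ITGAX, which pair with ITGB2 to bind ICAM1, had 53, 42 and 57. ITGB2 averaged 0.389 ± 0.299 CPM in DDR1 libraries and 0.743 ± 0.814 CPM in control libraries. Leukocytes of the host are mouse cells, so these counts of human genes cannot show whether such cells carried the chains.

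Of 15 genes of hyaluronan metabolism and other CD44 partners, 13 were tested, 5 with higher and 8 with lower estimates in DDR1 libraries and a median of -0.32. VCAN, a proteoglycan that binds hyaluronan, was the most abundant, at 435 ± 166 CPM in DDR1 libraries and 422 ± 102 CPM in control libraries (SD, n = 4 each). CD74, which uses CD44 as its signalling partner, held 41.2, 55.4, 33.2 and 35.6 CPM in DDR1 replicates 1 to 4, against 88.5, 65.8, 33.7 and 85 CPM in control replicates 1 to 4 (log2 fold change -0.72; unadjusted edgeR p of 0.0377, adjusted p = 0.9998). MMP9, a protease that docks on CD44, held 0.0862, 1.23, 1.01 and 0.15 CPM in DDR1 replicates 1 to 4, against 7.81, 2.71, 0.517 and 3.28 CPM in control replicates 1 to 4 (log2 fold change -2.50; unadjusted edgeR p of 0.0231, adjusted p = 0.9998). The DDR1 and control libraries overlapped for both genes. Without the library labelled DDR1 replicate 1 the log2 fold change was -0.72 for CD74, -2.13 for MMP9 and -0.22 for the median of the list. Of 9 factors that splice CD44, 6 had higher and 3 lower estimates, with a median of 0.03. Of 11 linkers to cortical actin, 6 had higher and 5 lower estimates, with a median of 0.00. Ezrin and moesin, which join the tail of CD44 to actin, were abundant: EZR held 387 ± 142 CPM in DDR1 libraries and 304 ± 27.2 CPM in control libraries, and MSN held 607 ± 162 CPM in DDR1 libraries and 531 ± 83.3 CPM in control libraries (SD, n = 4 each). Of 14 proteases that shed adhesion molecules or cut them within the membrane, with their inhibitors, 6 had higher and 8 lower estimates, with a median of -0.15.

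The list of 20 genes of NF-kB and interferon signalling mixed inducers of VCAM1 and ICAM1 with feedback inhibitors of NF-kB, such as NFKBIA and TNFAIP3. It had 4 higher and 16 lower estimates in DDR1 libraries, with a median log2 fold change of -0.39. Of the 20 genes, 8 had an unadjusted edgeR p under 0.05, all lower and the inhibitor TNFAIP3 among them. Of all tested genes, 425 (2.24%) were lower at that level. With an adjusted edgeR p of 0.9998 none of the 20 was called. RELB, which encodes a subunit of NF-kB, stood at 4.77, 6.96, 7.24 and 7.6 CPM in DDR1 replicates 1 to 4, against 13, 7.77, 15.3 and 15.5 CPM in control replicates 1 to 4. IL1B, a cytokine that induces both molecules in endothelium, held 11.4, 16.2, 22.7 and 17.1 CPM in DDR1 replicates 1 to 4, against 76.9, 36.4, 32.2 and 35.2 CPM in control replicates 1 to 4. For these 2 genes of the 20 the groups did not overlap, beside 2.4% of all genes. For RELB the highest DDR1 library held 7.6 CPM, against 7.77 CPM in the lowest control library. DESeq2, which called 0.0899% of all genes, called IL1B. Without the library labelled DDR1 replicate 1 the log2 fold change was -0.83 for RELB, -1.28 for IL1B and -0.36 for the median of the list. The library order within the list varied: for RELB, control replicate 3, low for VCAM1, was among the 2 highest, while IL1A was lowest in DDR1 replicates 4 and 1, at 4.5 and 4.6 CPM, and highest in control replicate 1, at 46.1 CPM. The list was chosen with earlier results of these data known, so its direction is no independent evidence.

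Of 36 further immunoglobulin-family adhesion genes, 31 were tested, 14 with higher and 17 with lower estimates in DDR1 libraries and a median of -0.10. At an unadjusted edgeR p under 0.05 there was 1 gene higher and 1 lower. CADM3 was the higher one, at 0, 8.38, 55.2 and 0.2 CPM in DDR1 replicates 1 to 4, against 0.222, 0.459, 0 and 1.52 CPM in control replicates 1 to 4 (log2 fold change 4.96, SE 1.93; unadjusted edgeR p of 0.0291, adjusted p = 0.9998). Its difference came from DDR1 replicates 2 and 3, and the groups overlapped. THY1, a lipid-anchored surface protein, held 9.02, 14.1, 12.7 and 0.7 CPM in DDR1 replicates 1 to 4, against 54.7, 20.7, 8.44 and 55.3 CPM in control replicates 1 to 4 (log2 fold change -1.92, SE 0.80; unadjusted edgeR p of 0.0378, adjusted p = 0.9998). ICAM4, of the same subfamily as ICAM1, held 0.201, 0.316, 1.29 and 1.05 CPM in DDR1 replicates 1 to 4, against 4.32, 1, 0 and 4.19 CPM in control replicates 1 to 4. As for ICAM1, control replicates 1 and 4 were the 2 highest. ICAM4, picked after its values were seen, held only 0 to 78 counts per library. It lies beside ICAM1 on the same strand. Without the library labelled DDR1 replicate 1 the log2 fold change was 5.38 for CADM3 and -1.91 for THY1, and the median of the list was 0.03. BSG was the most abundant, at 305 ± 60.2 CPM in DDR1 libraries and 304 ± 40 CPM in control libraries (SD, n = 4 each). Of 16 other adhesion genes outside that family, 8 had higher and 8 lower estimates, with a median of -0.06.

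**Figure D4:**
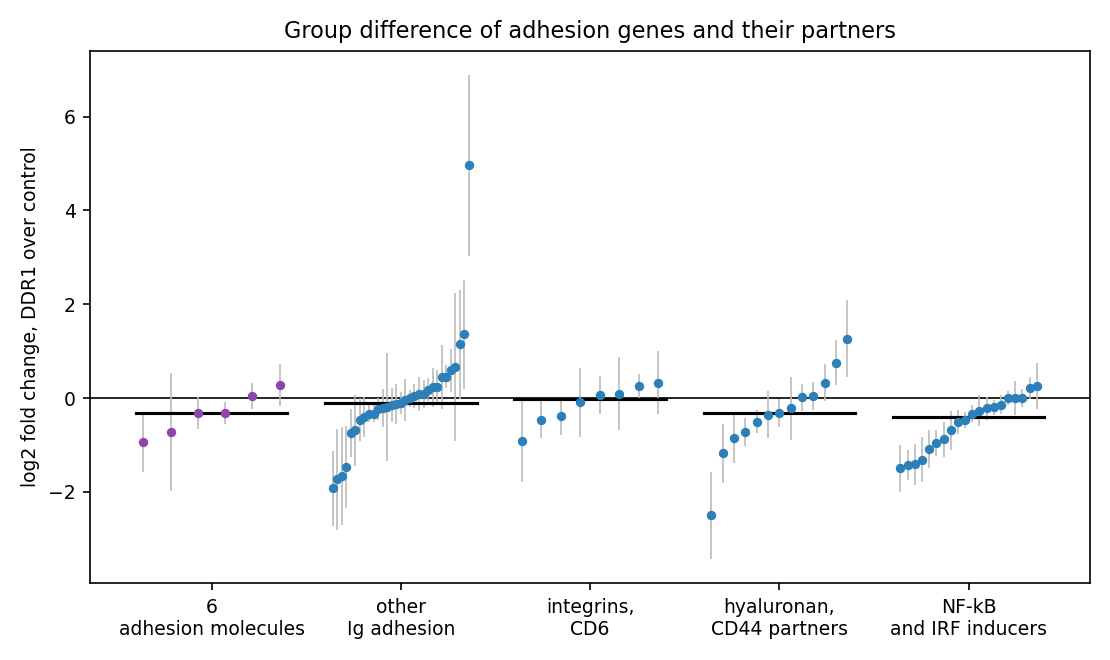
Log2 fold change, DDR1 over control, of each tested gene in the lists of adhesion molecules, partners, and NF-kB and interferon genes (labelled inducers). Points are genes, grey bars the SE and black bars the median of the list. The median of the 6 adhesion molecules is -0.32 and that of the 20 NF-kB and interferon genes -0.39.

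Other cells of a tumour can carry these molecules, so their markers were read beside them. In these xenografts such host cells come from the mouse, while the counts are of human genes. The marker values may come from T24 cells or from mouse reads aligned to human genes, and which was not tested. They are no measure of how many host cells a tumour held. Markers of epithelium and bladder cancer lines were abundant, KRT5 and KRT17 most of all, while EPCAM ran from 6.72 to 86 CPM, GATA3 from 1.55 to 9.15 CPM, and the urothelial marker UPK2 had too few counts to test. The summed level of the list ran from 6027 to 10819 CPM in DDR1 libraries and from 3732 to 8575 CPM in control libraries. Of its 10 tested genes, 8 had higher and 2 lower estimates in DDR1 libraries, with a median log2 fold change of 0.26, and edgeR called none. EGFR, a growth factor receptor, ran from 481 to 634 CPM in DDR1 libraries and from 336 to 403 CPM in control libraries without overlap (unadjusted edgeR p of 0.0083, adjusted p = 0.9998). KRT19, a keratin, held 394 ± 201 CPM in DDR1 libraries and 203 ± 74.4 CPM in control libraries, with overlap (unadjusted edgeR p of 0.0363, adjusted p = 0.9998). The part of these markers in the members' values was not tested. The 9 fibroblast markers summed to 5.49, 308, 115 and 15.6 CPM in DDR1 replicates 1 to 4, against 148, 52.7, 21.4 and 82.2 CPM in control replicates 1 to 4. They were thus lowest in the same 3 libraries in which VCAM1, ICAM1, ALCAM, MCAM and CD44 were lowest. The summed list of integrin chains and CD6 was lowest there too. COL6A3, a chain of a matrix collagen, gave most of the sum in the highest library, at 255 CPM, while the fibroblast-defining genes DCN and LUM had at most 10 and 7 counts in any library. Endothelial markers, 6 of 11 tested, summed to 36.9 to 163 CPM in DDR1 libraries and 27.5 to 68.2 CPM in control libraries; KDR, TEK, TIE1, EMCN and CLDN5 had too few counts to test. DDR1 replicate 4, at 163 CPM, was the highest in endothelial markers and the lowest in VCAM1. EGFL7 gave 86 CPM of that sum, CDH5 51.1 CPM, PECAM1 21.8 CPM and VWF 3.2 CPM. Leukocyte markers, 3 of 11 tested, summed to 23.6 to 49.2 CPM in DDR1 libraries and 16.4 to 39.4 CPM in control libraries. CD68 alone gave most of this sum, at 46.3 CPM in DDR1 replicate 4 and 37 CPM in control replicate 3, the highest library of each group. PTPRC had at most 4 counts in any library. Pericyte and smooth muscle markers summed to 30.7 to 58.9 CPM in DDR1 libraries and 38 to 50.5 CPM in control libraries, and nerve sheath markers to 20 to 53.7 CPM in DDR1 libraries and 33.4 to 42.8 CPM in control libraries. Whether mouse reads were removed is not given in the sources used here, and their share in any of these values was not tested.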

How the data were processed

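RNA was sequenced from 8 xenograft tumour libraries, 4 DDR1 and 4 control, grouped by the condition label; replicate numbers follow accession order and only name a library. Per the labels' protocols, polyadenylated RNA was captured with poly-T beads and sequenced from both ends over 150 bp. The authors worked with RSEM 1.3.1, STAR 2.7.5, Trim Galore 0.6.4 and FastQC 0.11.9, with GRCh38, per the submitters' processing notes. The authors deposited expected counts (estimated counts per gene) and values on a log2 scale after TMM scaling. For the authors' annotation release and handling of mouse reads: not given in the sources used here. The depth of 13716285 to 32271016 counts per library makes counting error small beside the spread between libraries, except for the lowest genes.

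Expected counts were rounded, and genes kept by filterByExpr (minimum count 10), scaled by TMM and tested with edgeR 4.0.16 (quasi-likelihood, R 4.3.3, limma 3.58.1), DDR1 against control without covariate. Benjamini-Hochberg adjusted p-values under 0.05 over 18973 genes were called. Log2 CPM used a prior count of 2. Identifiers were matched to GENCODE release 29 (58039 of 58302). Correlations used exact pairing permutations (scipy 1.17.1). The edgeR step was tested on simulated data. Every pair of libraries differed by more than sampling noise (chi-square over degrees of freedom at least 30.7). Alternatives were DESeq2 1.42.0, 3 other scalings, limma-voom, limma-trend on the deposited log2 values as they stand, 2 other filters, each library left out, controls with or without a lane left out, libraries of a shared title prefix summed, a reduced library size, and transcript length.

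The members and lists were chosen with earlier results of these data known. Named genes are the 6 molecules, DDR1, from each list up to 3 tested genes with the smallest p and the most abundant one, and the genes most like each molecule; of these the text names those it turns on. Other named genes (ITGA4, ITGAL, ITGAM, ITGAX, ICAM4, MSN, IL1A, NFKBIA, TNFAIP3, EPCAM, GATA3, UPK2, PECAM1, CDH5, DCN, LUM and PTPRC) were chosen after their values were seen. Protein sequences were not used here, and 1 list of partner genes is not reported here.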

Additional observations from a re-analysis of the deposited data

Results flagged for a closer look

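None of the 6 adhesion molecules had a library standing apart by Dixon's test within its group of 4. Of 86 groups of 4 libraries checked, 2 for each of 43 genes with the 6 molecules and DDR1 among them, 6 did, where chance gives about 1 in 20. BSG stood at 395 CPM in DDR1 replicate 4, against 267, 274 and 283 CPM in the other DDR1 libraries. NECTIN1 stood at 264 CPM in DDR1 replicate 4, against 133, 146 and 147 CPM. CADM3 stood at 55.2 CPM in DDR1 replicate 3, against 0, 0.2 and 8.38 CPM. In the control group, IL1B stood at 76.9 CPM in replicate 1, the library highest in VCAM1 and ICAM1, against 32.2, 35.2 and 36.4 CPM. SDC4 stood at 738 CPM in control replicate 1, against 380.3, 395 and 439.7 CPM. TIMP3, an inhibitor of sheddases, stood at 1029 CPM in control replicate 3, against 118, 146 and 177 CPM. What set these libraries apart was not tested.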

How the results depend on the processing

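No paired analysis was possible because the replicate numbers follow accession order and the labels carry no pairing. Under every alternative run, 0 of the 5 tested members was called, and of all genes 0 were called except with DESeq2, which called 16. The log2 fold change of DDR1 ran from 1.05 to 1.79 with each library left out, and without the lane 7 controls it was 1.31 with an unadjusted edgeR p of 0.0653, beside 0.00612 with all libraries, and an exact permutation p = 0.267, beside 0.0571. Without the lane 7 controls too few orderings remain for the permutation test to reach a p under 0.05. Of the 10 relations between members, 3 passed on r, and 1 to 5 with each library left out: 1 without DDR1 replicate 1 and 5 without control replicate 1. The VCAM1 ratio ran from 70.1 to 80.5 with each library left out. Its log2 fold change of -0.72 was -1.86 with limma-voom, -1.85 with limma-trend and 0.29 without the lane 7 controls, and ran from -2.08 to -0.17 with each library left out. With libraries of a shared prefix summed, ALCAM was at -0.09, BSG at -0.03, ITGA6 at -0.17 and VCAN at -0.10. Without the lane 7 controls, BSG was at -0.08, PODXL at 0.20 and VCAN at -0.19; without those with no lane, HNRNPA1 was at -0.01 and ITGA6 at -0.15. Values near 0 also turned sign for BSG (-0.00 with upper quartile scaling and limma-voom, -0.01 with library totals and the 5 CPM filter), ITGA6 (-0.01 and -0.00 with the last 2) and VCAN (-0.01 with limma-voom), and r of MCAM and L1CAM was -0.10 with library totals. With each library left out, log2 fold changes ran from -0.22 to 0.21 for ALCAM, -0.20 to 0.54 for MCAM, -0.13 to 0.06 for BSG, -0.62 to 0.01 for ITGA5, -0.27 to 0.13 for ITGA6, -1.38 to 0.17 for ITGB2, -0.51 to 0.08 for PODXL and -0.17 to 0.25 for VCAN. The r with L1CAM ran from -0.45 to 0.81 for ICAM1, -0.32 to 0.83 for ALCAM, -0.35 to 0.57 for MCAM and -0.28 to 0.90 for CD44. The cause of these shifts was not tested. Averaged over all libraries, levels per kb with the longest transcript were 362 for CD44, 71.9 for ALCAM, 43.2 for L1CAM and 2.65 for MCAM. With that length, VCAM1 stood at 72.7, ICAM1 at 71.1 and ALCAM at 70.6 in control libraries. In DDR1 libraries they stood at 44.1, 37.1 and 73.2. The order of the genes between CD44 and MCAM thus depended on the length used. Depth limits only the lowest genes.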
